A study of Mus musculus with 12 samples.

Results

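The regions described here were stretches of open chromatin in mouse natural killer (NK) cells that lay within 1 kb of the start or the far end of a protein-coding gene and were called in some libraries but not in others. Open chromatin had been mapped by ATAC-seq, in which a transposase cuts accessible DNA, and the deposited peak lists gave each open interval with its fold enrichment and significance. In each of the 12 libraries the 35110 intervals with the highest deposited −log10 q were kept, so that all lists had the same length. Intervals that shared at least 1 bp were merged across libraries, and a library was taken to call a region where its list held an interval there. A variable gene-end region was under 5 kb wide, lay within 1 kb of either end of a protein-coding gene in RefSeq GRCm38.p6 (the assembly behind mm10), and was called in 2 to 11 of the 12 libraries. There were 2766 such regions among 45091 regions called in at least 2 libraries (6.13%), and 12400 of the 45091 lay near a gene end. The members were thus chosen by the calls themselves, through their number over all libraries and not through which libraries made them.

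The study compared splenic NK cells that carried floxed Regnase-1 alleles (Reg-1fl/fl, labelled WT) with NK cells that lacked Regnase-1 (Reg-1ΔNK, labelled KO), each left as a control or stimulated with IL12/18. Each of the 4 groups had 3 libraries of 100000 cells. Regnase-1, encoded by Zc3h12a, is a ribonuclease that degrades inflammatory mRNAs. The Cre driver, the age of the mice, the time in culture and whether the libraries came from separate mice are not given in the sources used here, so p-values measure only the spread between these libraries.

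Chromatin at the start of a gene is where the transcription machinery assembles. Starts rich in CpG dinucleotides tend to be open in most cell types, while CpG-poor starts are often open only in particular cells or after a signal. IL-12 acts through JAK kinases and STAT4, and IL-18 through MyD88, NF-κB and MAP kinases, which also act on AP-1. AP-1 is a family of FOS, JUN and BATF dimers that bind mainly TGACTCA and TGAGTCA. The letters searched here, TGANTCA, are broader, since they allow any base in the middle. Both cytokines together drive NK cells to make interferon-γ and to divide.

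Sequence was looked at first for the members whose gene start lay inside them. The 300-base RefSeq promoters (250 bases before to 50 after a start) covered 17492 of 21887 protein-coding genes. Of these promoters, 22 started inside a member that was called more often after stimulation (the test is given below), in 19 regions, and 9 of the 22 (40.9%) held TGANTCA. The same letters were present in 1 of 90 promoters (1.11%) of members called less often, in 69 of 1091 promoters of all members (6.32%), in 4.16% of promoters in gene-end regions called in all 12 libraries, and in 6.99% of all 21238 promoters. Counted by region, they were in 8 of 19 (42.1%) against 1 of 81 (1.23%). These are descriptions, since promoters are not replicates, and a match does not show that a factor binds. The sites below are shown because, of the motifs searched, these letters had the widest gap between the promoters of both kinds of member. At Ugt1a6a, Osmr and the Tpbg site 127 bases before the start the middle base is A or T, and at the other sites C or G. Shares for C or G alone are not given here. Each site is printed 5′ to 3′ on the strand of the gene with the TGANTCA match in capitals.
Ugt1a6a, chr1:88134665-88134711, + strand, match 124 bases before the start: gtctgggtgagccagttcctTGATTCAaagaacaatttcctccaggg
Sdcbp2, chr2:151572559-151572605, + strand, 44 bases before: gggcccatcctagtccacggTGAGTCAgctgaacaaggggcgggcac
Procr, chr2:155751043-155751089, + strand, 154 bases before: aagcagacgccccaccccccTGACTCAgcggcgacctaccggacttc
Mmp10, chr9:7502259-7502305, + strand, 63 bases before: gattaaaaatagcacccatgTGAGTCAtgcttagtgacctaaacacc
Tpbg, chr9:85842130-85842174, + strand, 232 bases before: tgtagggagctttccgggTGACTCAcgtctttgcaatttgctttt
Tpbg, chr9:85842233-85842279, + strand, 127 bases before: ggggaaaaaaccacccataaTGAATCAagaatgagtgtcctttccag
Fcrlb, chr1:170912892-170912920, − strand, 32 bases after: ctgcttctgggTGAGTCAgtaatgagggg
Tnfsf13b, chr8:10006495-10006516, + strand, 39 bases after: cttgtctggagTGAGTCAgtct
Osmr, chr15:6874284-6874330, − strand, 3 bases after: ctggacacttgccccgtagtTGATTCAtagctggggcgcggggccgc
Hmgcll1, the 1 promoter of a less often called member, chr9:76014771-76014817, + strand, 186 bases before: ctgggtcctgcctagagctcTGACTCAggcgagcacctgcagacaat

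The genes at these sites have varied roles. Tnfsf13b encodes the B cell survival cytokine BAFF, Osmr a chain of the oncostatin M receptor, Procr the protein C receptor, Mmp10 a matrix metalloproteinase and Ugt1a6a an enzyme that conjugates glucuronic acid. At the start of Ugt1a6a no control library had a deposited interval of any strength. Its interval ranked 19760, 19802 and 20077 in the 3 WT stimulated libraries and 12856, 18157 and 18680 in the 3 KO stimulated libraries, where rank 1 is the strongest of a library's 35110. The Mmp10 start likewise had no interval in any control library and ranked 28381, 26486 and 29967 in WT stimulated and 15006, 27984 and 22812 in KO stimulated libraries. At both starts the control and stimulated libraries did not overlap. Tpbg differed from them: all 6 control libraries had an interval there that was too weak for the kept list, and the 6 stimulated libraries ranked it between 19032 and 29796. Ugt1a6a and Ugt1a6b are near-identical neighbours that share exons, so reads may be split between them.

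Before any result on treatment or genotype, the libraries need a description. KO stimulated replicate 1 had the shortest deposited list, with 35110 distinct intervals, and WT stimulated replicate 3 the longest, with 63128. The lowest −log10 q kept was 1.31 in the former and 27.1 in the latter. Read depth is not given by peak lists. KO stimulated replicate 1 stood apart: among the 570 members called in 11 libraries, it was the library without the call for 333 (58.4%). Zc3h12a, the deleted gene, had no member: the region near its end (chr4:125121945-125128930) was called in all 12 libraries, and a call there does not check the deletion. All 10 NK markers looked up (among them Ncr1, Eomes, Tbx21 and Gzmb) had a gene-end region called in all 12 libraries, against 1 of 7 B cell markers, 3 of 8 T cell, 4 of 11 myeloid and 2 of 7 erythroid markers.

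Variable gene-end regions were weaker, narrower and placed differently from the 9274 gene-end regions under 5 kb that were called in all 12 libraries. Their median width was 994 bp against 1958 bp, and the median rank of their intervals was 28844 against 7380. Only 59 members (2.13%) ranked within the first 10000 of any library, compared with 7126 constant regions (76.8%). Where RefSeq gave the strand, 1371 of 2100 members (65.3%) lay at a start, and the other 729 (34.7%) lay at a far end only. Of the constant regions 93.6% lay at a start and 6.36% at a far end only. A gene end fell inside 54.8% of members and 90.7% of constant regions. Rank and number of calls are linked by the rule, because a region close to the end of the kept list drops out of some libraries, so no test was made of these differences.

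Variability itself was less common near genes. Of regions under 5 kb, 23.0% of those near a gene end were variable, against 65.3% of those farther away (21212 of 32489). The members were called in 2 libraries (321 regions) up to 11 libraries (570 regions). Just outside these limits, 546 gene-end regions were called in 1 library. At the distance limit, 107 members lay in the last 100 bp inside it, and 111 further variable regions lay in the first 100 bp beyond. At the width limit, the widest member measured 4988 bp, and 8 variable gene-end regions were left out, the narrowest of 5010 bp. The members' nearest ends belonged to 2589 genes, and 262 members lay near more than 1 gene.

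Fewer variable gene-end regions were called after stimulation in both genotypes. Of the 2766, the WT control libraries called 1790, 1909 and 1879 (1859 ± 61.9, SD, n = 3) and the WT stimulated libraries 1220, 1333 and 1399 (1317 ± 90.5, n = 3). The KO control libraries called 1756, 1876 and 1869 (1834 ± 67.4, n = 3) and the KO stimulated libraries 1079, 1517 and 1341 (1312 ± 220, n = 3). Every stimulated library was below every control library of its genotype, and the difference between the means was -542 regions in WT and -521 in KO. List length is fixed, so a region can lose its call when others move up, and whether this happened was not tested. Per library, 10560 ± 486 variable regions away from genes were called in WT controls and 11514 ± 195 after stimulation. The KO values were 10511 ± 130 and 9961 ± 1114, so this mean rose in WT and fell in KO.

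The count depended on the length of the lists. With all deposited intervals, which differ in number between libraries, 2376 ± 183 members had an interval in the WT controls and 2529 ± 90.6 after stimulation, so the WT difference turned to 153 more. The KO means were 2462 ± 79.6 and 1839 ± 705, and KO stimulated replicate 1 held 1079. The WT control libraries (2172 to 2526) and WT stimulated libraries (2470 to 2633) overlapped on this count. In WT, then, fewer members reached the kept lists after stimulation, while the number with an interval of any strength did not fall.

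**Figure D1:**
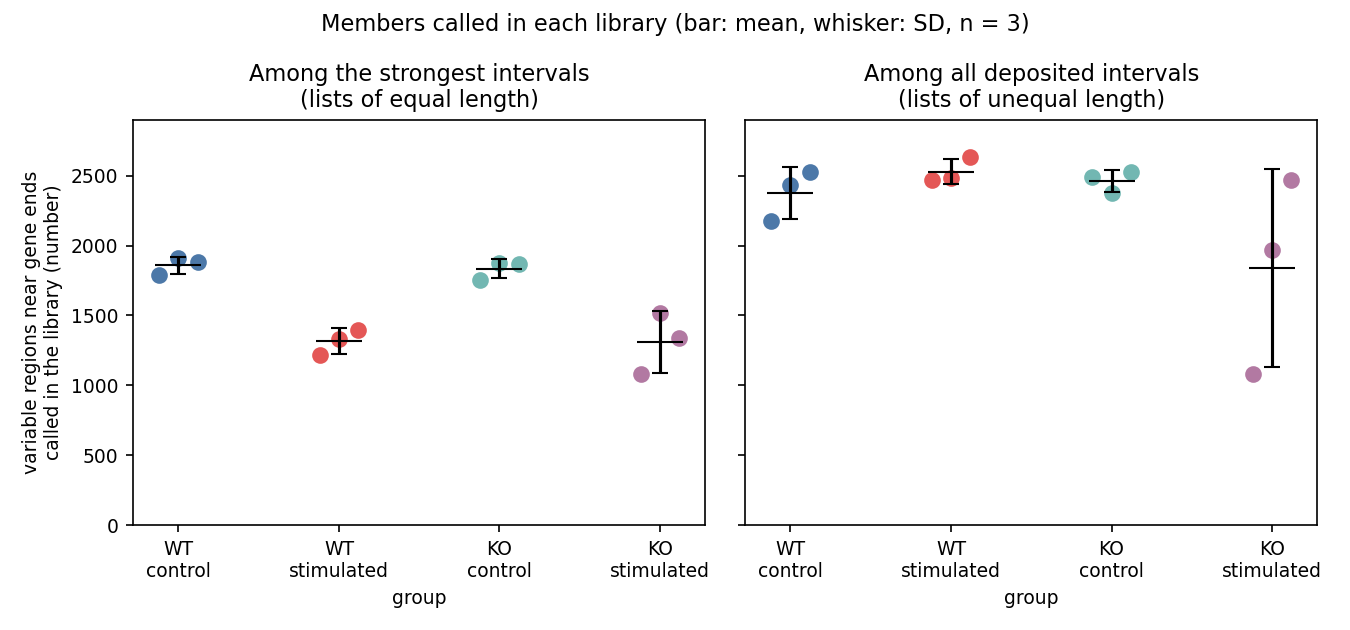
Number of the 2766 variable gene-end regions called in each library (vertical axis, number of regions), by group; each point is a library, the bar is the mean and the whisker the SD of 3 libraries. On lists of equal length (left) the stimulated libraries lie at 1079 to 1517 and the control libraries at 1756 to 1909; with all deposited intervals (right) the WT groups overlap and KO stimulated replicate 1 stays at 1079.

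Control libraries of both genotypes called largely overlapping sets of members, and the stimulated libraries overlapped less. The mean Jaccard index, the share called by both among the members called by at least 1 of 2 libraries, was 0.738 among WT control libraries and 0.730 among KO controls. Among WT stimulated libraries it was 0.669, and among KO stimulated ones 0.413. Between treatments it was 0.420 in WT and 0.412 in KO, and between genotypes 0.690 for control and 0.466 for stimulated libraries. KO stimulated libraries shared no more with each other (range 0.322 to 0.556) than with WT stimulated libraries (0.274 to 0.602). The index tends to be lower where fewer members are called. On average WT and KO control libraries called 67.2% and 66.3% of members, and WT and KO stimulated libraries 47.6% and 47.4%. The index that unrelated calls would give was not computed, so the lower values after stimulation are not shown to be poorer agreement.

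Treatment was tested region by region with a permutation test, exact and two-sided, that held each genotype's number of calls fixed, with Benjamini-Hochberg adjustment over all 8864 testable regions of the series. The test has up to 400 rearrangements, so its smallest p is 0.00500, and it conditions on the number of calls that chose the members. Of the 840 members that could reach an unadjusted p of 0.05, 139 were called more often after stimulation (16.5%) and 266 less often (31.7%) at an adjusted p of at most 0.05. Over all testable regions the shares were 33.5% more often and 26.2% less often, and over variable regions away from genes 35.3% and 25.7%. Among gene-end regions the lower calls thus outnumbered the higher ones, the reverse of the order over all regions. With all deposited intervals the order turned: 90 members were higher and 45 lower among 347 testable (25.9% and 13%), beside 36.5% and 12.7% of all regions tested, and 56 of the higher and 24 of the lower ones were called on both kinds of list. On both kinds of list the share of higher members was below that over all regions. Without KO stimulated replicate 1 the counts on equal lists were 169 higher and 342 lower, 16.2% and 32.7% of testable members. Over all testable regions the shares were then 34.8% and 25.7%.

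The regions called in all 6 libraries of one treatment and none of the other had the smallest adjusted p, 0.0169 (exact permutation test). There were 76 such members open only among the strongest intervals of stimulated libraries and 85 only among those of controls (2.75% and 3.07% of the members, against 6.76% and 4.16% of the 24015 variable regions). The remaining 244 that passed had an adjusted p of 0.0335. Looking beyond the test, 1974 members (71.4%) were called in fewer stimulated than control libraries, 579 in more and 213 in as many. The matching totals over other regions were not computed. The median difference was -1 library both for members and over all variable regions. Of the 1974, 680 differed by -1 only, beside 2538 of the 21212 variable regions away from genes. At 333 of these 680 members, KO stimulated replicate 1 was the single library without the call, so that library carries much of this count.

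**Figure D2:**
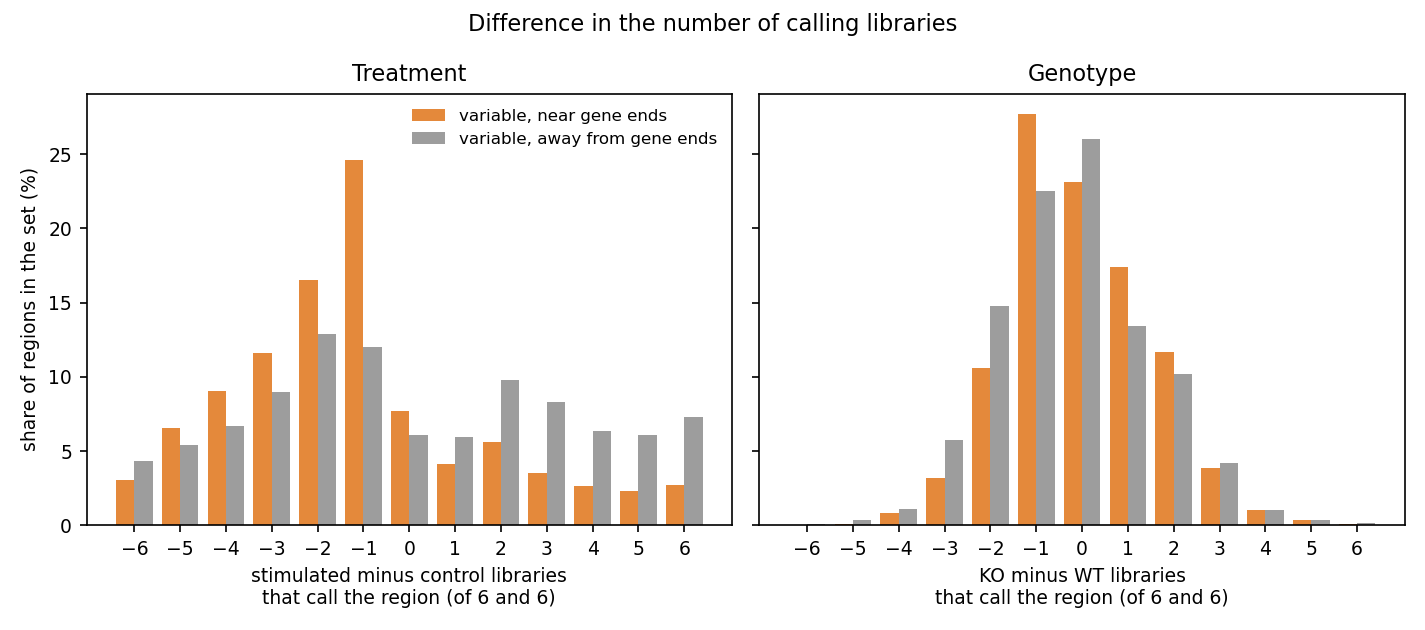
Share of regions (vertical axis, percent) by the difference in the number of calling libraries (horizontal axis), stimulated minus control on the left and KO minus WT on the right, for the 2766 variable gene-end regions (orange) and the 21212 variable regions away from genes (grey). By treatment 24.6% of members sit at -1 and 2.75% at 6, against 12% and 7.29% of the others; by genotype both sets are centred near 0.

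Some higher members had no deposited interval in any control library. Of the 139, 41 (29.5%) had no deposited interval of any strength in any of the 6 control libraries, 78 had intervals there only below the kept list, and 20 were called in at least 1 control library. Among the 266 lower members, 10 (3.76%) had no interval in any stimulated library, 153 (57.5%) had intervals there only below the kept list, and 103 (38.7%) were called in at least 1 stimulated library. So 256 of the 266 lower members had an interval of some strength in at least 1 stimulated library. These shares depend on list length: control libraries held 42520 to 53440 distinct intervals, WT stimulated 55146 to 63128 and KO stimulated 35110 to 54303. The same shares over all higher and lower regions were not computed, so the gap is not shown to be particular to gene ends. The groups also differed in place: where the strand was known, 45 of 110 higher members (40.9%) and 116 of 197 lower members (58.9%) lay at a start.

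The higher members are named in an order that puts those with the fewest deposited control intervals first, and the one at its head lay 736 bp from an end of Ly6i, which encodes a small lipid-anchored surface protein of the Ly6 family (chr15:74984170-74985254). It ranked 8858, 11530 and 8403 in the WT stimulated and 15739, 19461 and 16593 in the KO stimulated libraries, and no control library had an interval there. Srf, the gene of a transcription factor that responds to growth signals, had its start in a member (chr17:46557706-46558690) that ranked 23155, 19969 and 19502 in WT stimulated and 15241, 23503 and 21963 in KO stimulated libraries, with none in the controls. Both were thus present in 6 of 6 stimulated and absent in 6 of 6 control libraries, with an adjusted p of 0.0169 each (exact permutation test).

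The other members of this kind, named by the same rule, lay at genes of signalling, membrane and enzyme functions. Near the start of Sema7a, a membrane-anchored semaphorin that acts on leukocytes (chr9:57938123-57939294), the WT stimulated ranks were 15681, 16927 and 16238 and the KO stimulated ranks 15025, 25774 and 26423. Past the far end of Spry1, an inhibitor of receptor tyrosine kinase signalling (chr3:37645069-37645740), they were 18124, 16629 and 20405 in WT and 30635, 18863 and 18948 in KO. Arih1, a ubiquitin ligase gene, had such a region over its far end (chr9:59387457-59388576), ranked 12936 to 18395. The remaining 7 were Yipf4, Ms4a20, Ugt1a6a, Olfr433, Ms4a4d, Ugt1a6b and Card19, with ranks from 11998 to 33346 in the stimulated libraries and no interval in any control. Ly6i, Ms4a20, Ms4a4d, Olfr433 and the Ugt1a6 genes belong to families of similar copies, where aligned reads may be misplaced.

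Among the lower members the one that led the order lay 653 bp from an end of Abi2, which encodes a part of the WAVE complex that drives actin assembly (chr1:60482598-60483551). It ranked 13448, 14826 and 14944 in the WT control and 21946, 31151 and 19483 in the KO control libraries. None of the 6 stimulated libraries had an interval there (exact permutation test, adjusted p = 0.0169). Plagl2, a zinc finger transcription factor gene, followed with a region 174 bp from its end (chr2:153227943-153228618) that ranked 23396, 22987 and 22772 in WT control and 21991, 22741 and 20909 in KO control libraries, and in no stimulated library. Plac8, a gene of myeloid and lymphoid cells, had a region 752 bp from its start (chr5:100573005-100573740) ranked 18377, 17522 and 19125 in WT control and 28595, 20657 and 23150 in KO control libraries, while 2 WT stimulated libraries held a weaker interval. The other named ones were Trpv6, Qtrt1, Slc35c2, Slc36a2, Cldn6, Eya2, Grm4, Gpbar1 and B3gat3, each called in 6 of 6 control and 0 of 6 stimulated libraries, with ranks from 15273 to 34845. An end of Ephb6 also lay within 1 kb of the Trpv6 region, and one of Rom1 within 1 kb of the B3gat3 region. Plac8 and B3gat3 lost their calls with all deposited intervals. Where intervals had to cover 50% of a region, Abi2, Plagl2, Trpv6, Slc35c2, Slc36a2, Eya2, Gpbar1 and B3gat3 lost theirs, as did Olfr433, Ms4a4d and Card19 among the higher members.

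**Figure D3:**
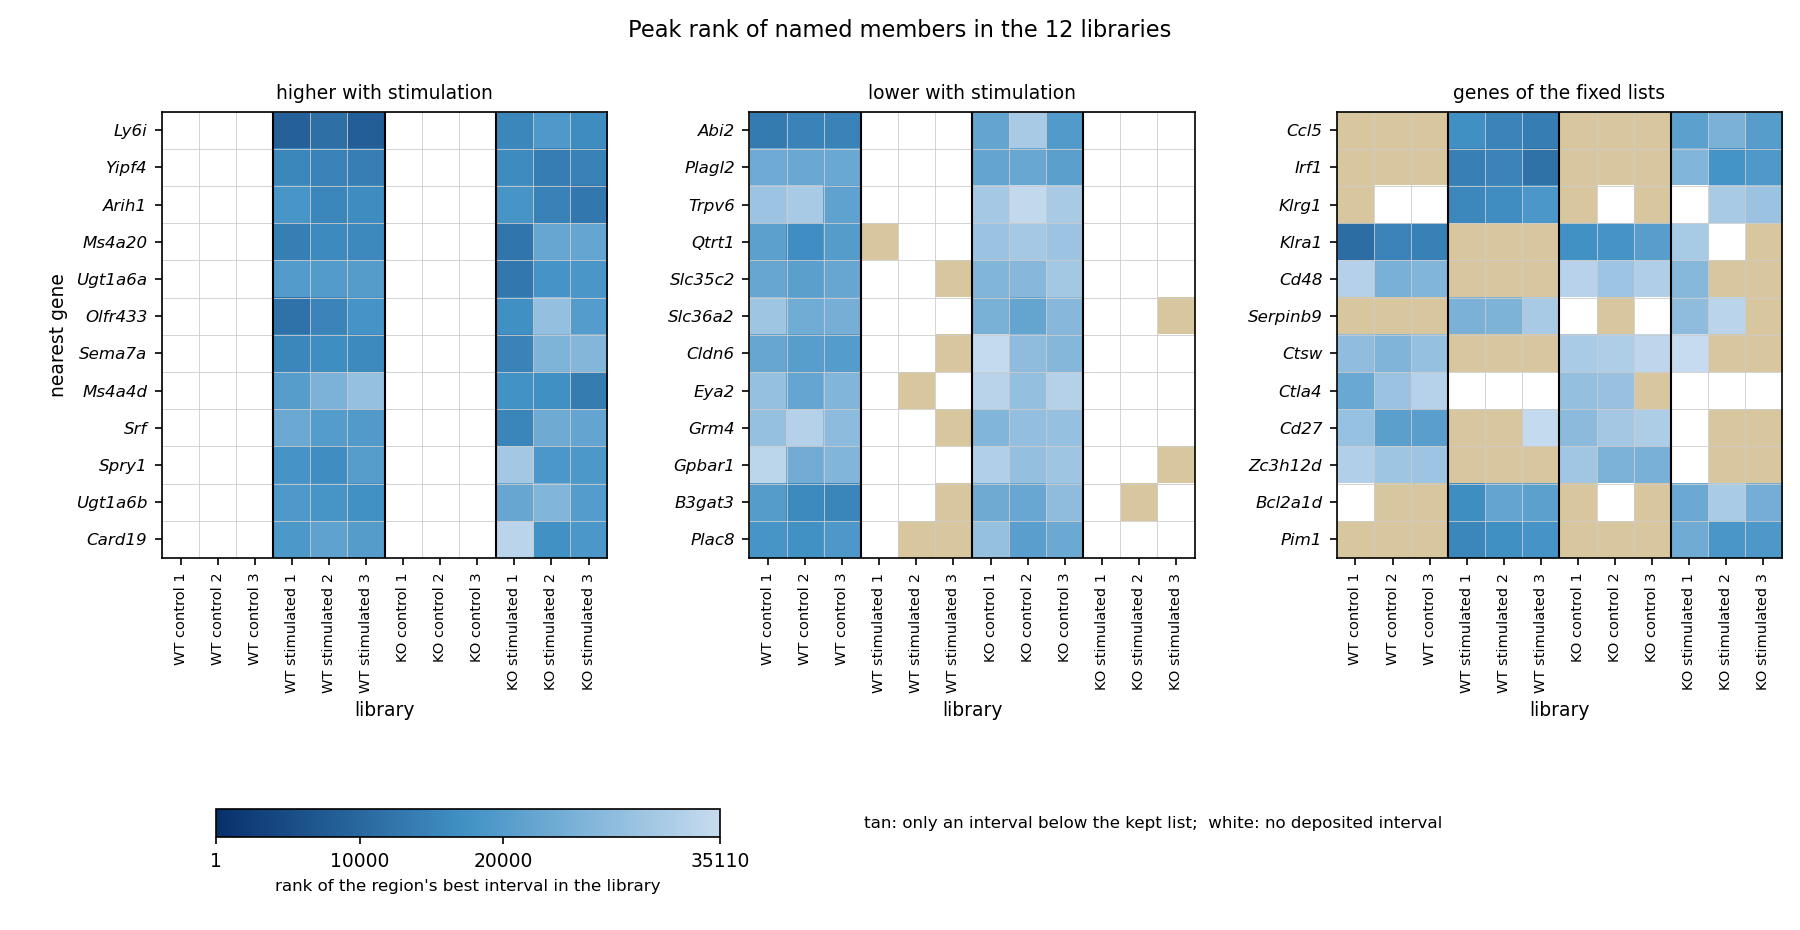
Rank of the best interval of each named member (rows, by nearest gene) in each of the 12 libraries (columns); dark blue is a strong interval, light blue one near rank 35110, tan an interval below the kept list and white none. The 12 leading higher members are blue in the 6 stimulated libraries and white in all controls, the 12 leading lower members the opposite apart from scattered tan cells, and most genes of the lists on the right are tan rather than white on their low side.

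Genes on the lists of NK cell function and signalling were looked up next. Of 307 such genes 60 (19.5%) had a member within 1 kb of an end, beside 2835 of all 21887 protein-coding genes (13%), and 240 (78.2%) had a constant gene-end region. Of the 60, 28 had both. The share of all protein-coding genes with a constant gene-end region was not computed. Such regions are thus not shown to be particular to these lists. In 14 lists (cytokines, receptors, signalling, transcription factors, cytotoxicity, checkpoints, homing, RNA decay, interferon response, metabolism, cell cycle and ubiquitous genes) 67 members were found, 22 of them testable, with 6 higher and 6 lower, where 139 and 266 of 840 testable members passed in all. No gene of the AP-1 and BATF list (15 genes, 14 with a constant gene-end region) and no ubiquitous gene (13 genes, 12 with one) had a member. The cytokine receptor and JAK-STAT list had 26 of 28 genes with a constant region and 2 members, at Il18rap and Il21r, neither of them testable. The NF-κB list had 21 of 23 genes with a constant region and 3 members, at Nfkb1, Nfkbiz and Ikbkb, and none passed. With all deposited intervals the calls of 11 of the 12 listed members that passed were lost, and the far-end region of Ctla4 kept its call.

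Of the 20 cytokine and chemokine genes, 2 had a member. One was Ccl5, a chemokine that draws T and NK cells, whose region over a gene end (chr11:83529463-83531007) ranked 17293, 15169 and 13986 in WT stimulated and 21043, 25183 and 20401 in KO stimulated libraries. All 6 control libraries had a weaker interval, so the region passed on equal lists (adjusted p = 0.0169, exact permutation test) and had no difference with all deposited intervals. Irf1, an interferon-induced transcription factor and 1 of 6 members on the NK transcription factor list, behaved alike at its far end (chr11:53778195-53780452). Its region ranked 14393, 15165 and 11894 in WT stimulated and 26050, 18025 and 19293 in KO stimulated libraries, and all 6 controls had a weaker interval. Irf1 also had a gene-end region called in all 12 libraries (chr11:53768546-53772110). Pim1, a survival kinase gene, ranked 15740, 17414 and 18115 and then 23592, 18786 and 19117 in the WT and KO stimulated libraries, again with a weaker interval in every control. At these 3 genes the stimulated libraries ranked the region higher without an interval being absent from the controls.

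NK receptor and adaptor genes had 13 members, of which 6 were testable, 1 higher and 2 lower. The higher one lay 985 bp from an end of Klrg1, an inhibitory receptor of mature NK cells (chr6:122268882-122269611). It ranked 15810, 16655 and 18892 in WT stimulated libraries, and 31174 and 29439 in KO stimulated replicates 2 and 3, with no interval in replicate 1. Klrg1 also had gene-end regions called in all 12 libraries, at chr6:122270013-122270956 close by and at chr6:122282287-122285180. The lower ones were the starts of Klra1, which encodes the MHC class I receptor Ly49A, and Cd48, which encodes the ligand of the receptor 2B4. Klra1 (chr6:130386709-130387708) ranked 10976, 15193 and 14674 in WT control and 17429, 18222 and 20477 in KO control libraries, was below the kept list in all 3 WT stimulated libraries, and ranked 31027 in KO stimulated replicate 1. Cd48 (chr1:171680950-171682774) ranked 32835, 24844 and 26134 in WT control and 33158, 29729 and 32177 in KO control libraries, and 26714 in KO stimulated replicate 1, and the other 5 stimulated libraries had a weaker interval. Each of the 3 had an adjusted p of 0.0335 (exact permutation test). The Ly49 genes are near-identical copies, so the Klra1 values are uncertain.

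Checkpoint and costimulation genes had 8 members, 4 testable and 2 lower. Cd27 encodes a costimulatory receptor that NK cells lose as they mature, and its start (chr6:125235894-125237796) ranked 28863, 20953 and 20652 in WT control and 27355, 30671 and 31752 in KO control libraries. It reached the kept list in 1 stimulated library, WT replicate 3, at rank 34962. Cd27 also had a gene-end region called in all 12 libraries (chr6:125230941-125233133). A region 463 bp past the far end of Ctla4, an inhibitory receptor gene (chr1:60916295-60917029), ranked 22871, 29486 and 32991 in WT control and 28419 and 29063 in KO control replicates 1 and 2, and no stimulated library had an interval (both adjusted p = 0.0335, exact permutation test). The second Ctla4 member, at its other side, was called in 0 WT control, 3 WT stimulated, 2 KO control and 3 KO stimulated libraries and did not pass.

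In the cytotoxic granule list 5 genes had 7 members, 4 testable, 1 higher and 1 lower. Serpinb9, the inhibitor of granzyme B, had a member over its far end (chr13:33017178-33020839) called in 3 WT and 2 KO stimulated libraries and in no control. Ctsw, the gene of the NK and T cell protease cathepsin W, had one (chr19:5463694-5465701, also within 1 kb of an end of Fibp) called in 6 of 6 control libraries and in KO stimulated replicate 1 alone of the stimulated ones, at rank 35054. Both had an adjusted p of 0.0335 (exact permutation test). On the cell cycle and survival list 2 of 8 members were higher: Pim1, described above, and a region near Bcl2a1d, an anti-apoptotic gene with near-identical copies, with calls in every stimulated library and in none of the 6 controls. Homing genes had 11 members, of which 1 was testable and none passed.

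On the list of RNA decay genes and reported Regnase-1 target mRNAs, 5 of 23 genes had a member. Zc3h12d, a relative of the deleted gene that also encodes a ribonuclease (Regnase-4), was lower after stimulation in both genotypes at its start (chr10:7831922-7832679). It ranked 32340, 29764 and 29731 in WT control and 30227, 25402 and 24885 in KO control libraries and was below the kept list or absent in all 6 stimulated libraries (adjusted p = 0.0169, exact permutation test). Among all deposited intervals only KO stimulated replicate 1 lacked it. Its promoter is shown with that of Cd27, because both are starts that moved down the ranking. Both are printed from 250 bases before the start, with the first of a motif searched in capitals: GGGCGG, the Sp/KLF letters, in Zc3h12d at 189 bases before the start, and CTTTGAA, the TCF/LEF letters on the other strand, in Cd27 at 14 bases after it. GGGCGG occurs on either strand in 46.2% of all promoters and CTTTGAA in 4.54%.
Zc3h12d, chr10:7832220-7832499, + strand: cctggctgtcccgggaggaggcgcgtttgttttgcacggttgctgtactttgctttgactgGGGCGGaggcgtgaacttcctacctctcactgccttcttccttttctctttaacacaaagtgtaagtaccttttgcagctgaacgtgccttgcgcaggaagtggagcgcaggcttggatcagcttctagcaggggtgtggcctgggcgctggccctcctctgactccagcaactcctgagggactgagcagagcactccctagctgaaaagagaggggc
Cd27, chr6:125236998-125237277, − strand: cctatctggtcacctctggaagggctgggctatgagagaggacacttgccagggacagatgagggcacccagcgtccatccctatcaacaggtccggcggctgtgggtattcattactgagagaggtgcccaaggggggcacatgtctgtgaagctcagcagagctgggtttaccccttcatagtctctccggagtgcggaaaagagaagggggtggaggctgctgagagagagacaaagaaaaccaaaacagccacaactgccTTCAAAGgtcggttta

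An exact permutation test of 3 against 3 libraries cannot go below p = 0.1, so within a genotype the regions were only counted as gained (3 of 3 stimulated, 0 of 3 control) or lost (the opposite). In WT, 202 members were gained (7.30%) and 397 lost (14.4%), beside 17.6% and 12.2% of all 24015 variable regions. In KO, 113 were gained (4.09%) and 218 lost (7.88%), beside 9.69% and 8.76%. Without KO stimulated replicate 1, for which 2 of 2 libraries suffice, they were 167 and 307. Losses exceeded gains among gene-end regions of both genotypes, while gains exceeded losses over all variable regions. With all deposited intervals WT had 158 gained and 33 lost members and KO 56 and 121. The shares over all variable regions were not computed for those lists, so this shift is not shown to be particular to gene ends. Gained in both genotypes were 76 members, 37.6% of those gained in WT and 67.3% of those gained in KO. Over all variable regions 1624 were gained in both, among 4232 gained in WT and 2326 gained in KO. Lost in both were 85 members, which is 21.4% of those lost in WT and 39.0% of those lost in KO. Over all variable regions 998 were lost in both, among 2936 lost in WT and 2104 lost in KO.

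Members that were gained or lost in 1 genotype mostly moved the same way in the other. The matching shares over all variable regions were not computed. Of the 202 gained in WT, 164 had more calling stimulated than control libraries in KO, 34 as many and 4 fewer. Of the 397 lost in WT, 312 had fewer in KO, 63 as many and 22 more. No member was gained in one genotype and lost in the other, and the difference between the genotypes' responses was not tested. Gm8369, a neighbour of the Ms4a genes, led the WT gains by rank (chr19:11511041-11511738), at 9076, 10616 and 12170 in WT stimulated and 15270, 11723 and 10344 in KO stimulated libraries. Syt3, which encodes a calcium sensor of vesicle fusion, led the KO losses (chr7:44398646-44399450): it ranked 13453, 18230 and 18023 in KO control libraries, 17352, 14875 and 14677 in WT control libraries and 27689 in 1 WT stimulated library.

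No variable gene-end region passed the test for genotype. Of 242 testable members, 0 were called more often and 0 less often in KO at an adjusted p of at most 0.05 (0% and 0% of 1835 regions tested over the series), and the smallest adjusted p was 0.158 (exact permutation test, Benjamini-Hochberg). At an unadjusted p of at most 0.05 there were 26 members higher in KO (10.7%) and 13 lower (5.37%), against 13.6% and 11.8% of all regions tested. By single groups, 44 members were called in all KO control and no WT control library and 36 the opposite (1.59% and 1.3%, beside 2.14% and 1.71% of variable regions). Among stimulated libraries the counts were 44 and 54 (1.59% and 1.95%, beside 1.89% and 3.16%). Without KO stimulated replicate 1 the latter were 90 and 75, and without replicate 3 they were 154 and 124.

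The members that separated the genotypes most are given as values, since none passed. At 3 regions all 6 KO libraries and no WT library made the call, Cep131, Ntng2 and Stc2, which is 0.108% of members beside 0.133% of variable regions (unadjusted exact permutation p = 0.00500, adjusted 0.158). Near the start of Ntng2, which encodes a membrane-anchored netrin (chr2:29245362-29248009), the ranks were 35031, 25655 and 28894 in KO control and 15323, 15285 and 15611 in KO stimulated libraries. The WT stimulated libraries held a weaker interval there and the WT controls none. At the start of Stc2, a secreted glycoprotein gene, all 6 WT libraries held a weaker interval, so the KO libraries differed in rank alone. Mxd1, the gene of a MYC antagonist, was the 1 member called in all 6 WT libraries and no KO library, beside 0.108% of variable regions (chr6:86645134-86646701), with ranks of 33122, 29168 and 32589 in WT control and 21841, 34508 and 28591 in WT stimulated libraries, all in the last part of the lists.

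Others had 5 calls in a genotype and none in the other. Tnfrsf13b, which encodes the BAFF receptor TACI, ranked 32794, 24992 and 24913 in KO control libraries and 31508 and 31416 in KO stimulated replicates 1 and 2, and no WT library had any interval near its start (chr11:61126404-61127173). Itgb2, the common chain of the leukocyte integrins, had a region 653 bp from its end (chr10:77566361-77567123) called in 2 WT control and 3 WT stimulated libraries, at ranks 22329 to 32409, and in no KO library. Klk1b27 and Klk1b8, kallikrein genes with many similar copies, were called in 5 KO libraries each, and Anks6 in 5 WT libraries. All of these had an unadjusted p of 0.0200 and an adjusted p of 0.161 (exact permutation test). Zfp966, Moxd1 and Xirp1, called in more WT than KO libraries, had an unadjusted p of 0.05.

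**Figure D4:**
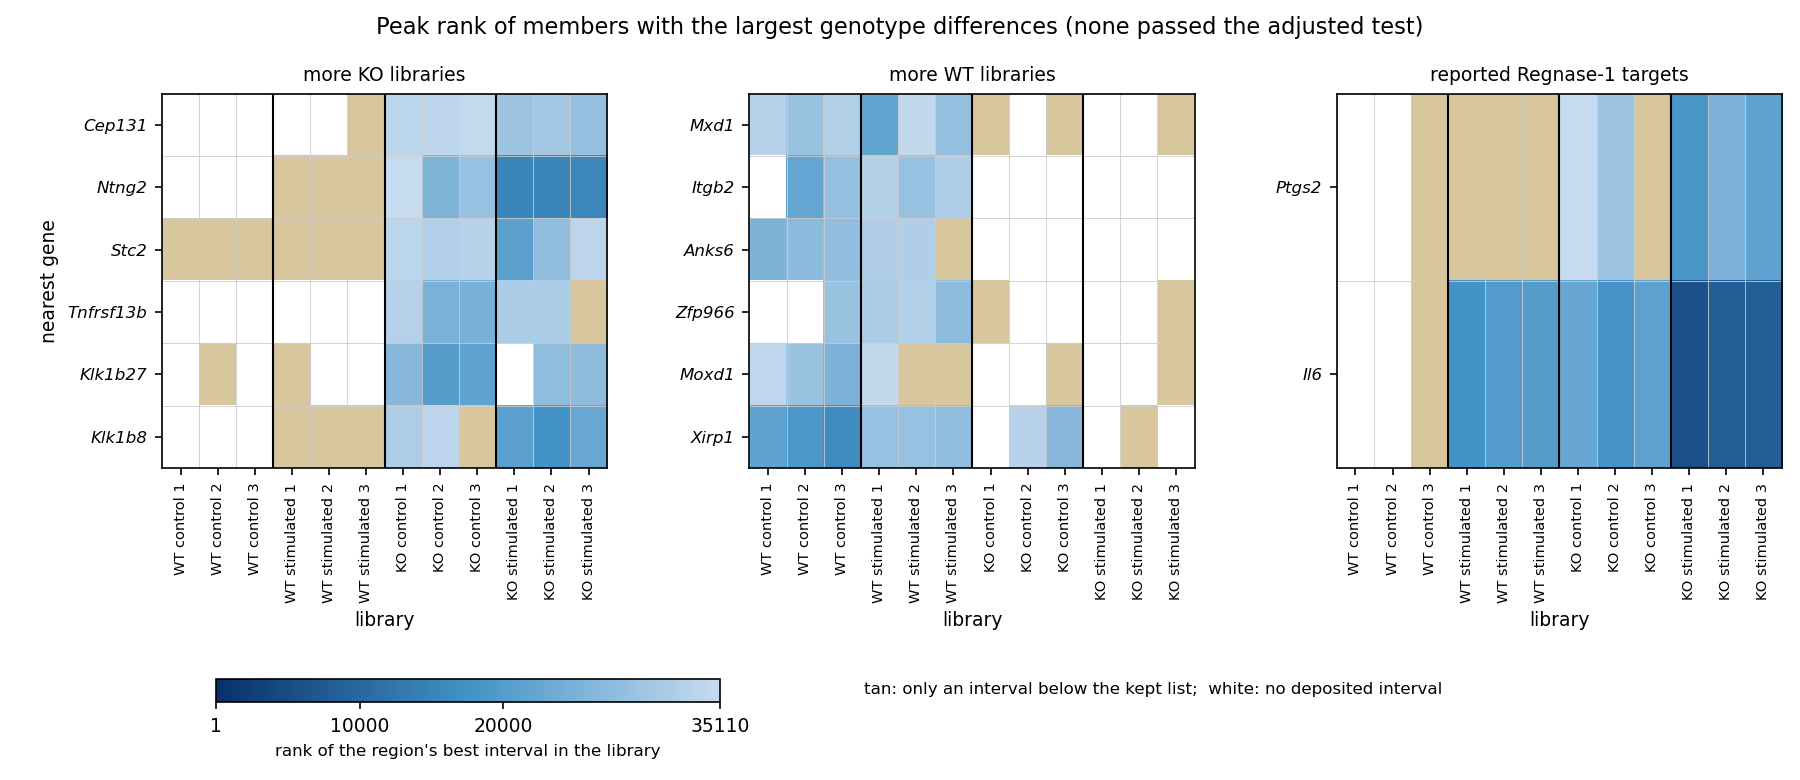
Rank of the best interval in each of the 12 libraries (columns) for the 6 members with the smallest genotype p in each direction and for the starts of Ptgs2 and Il6 (rows); colours as ranks from 1 (dark blue) to 35110 (light blue), tan for an interval below the kept list and white for none. Ntng2 is darkest in the 3 KO stimulated libraries (15285 to 15611) and Il6 too (5860 to 8266); none of the members shown passed the adjusted genotype test.

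Of the genes on the list of RNA decay genes and reported Regnase-1 target mRNAs, Zc3h12d, Ptgs2, Il6, Nfkbiz and Icos had a member, and they did not all lean to one genotype. Ptgs2, which encodes the prostaglandin synthase COX-2, and Il6, the gene of interleukin-6, had more calls in KO libraries. Icos, a costimulatory receptor gene (chr1:60960909-60961351), was called in WT stimulated replicates 2 and 3 alone, at ranks 34313 and 32014. Nfkbiz, the gene of an NF-κB cofactor (chr16:55809510-55810595), was called in WT control replicate 1 and KO stimulated replicate 1, and Zc3h12d in as many KO as WT libraries. The promoters of Ptgs2 and Il6 are shown because their starts lay in regions that differed most in calls between genotypes on this list. In Il6 the capitals mark a match to TGANTCA 249 bases and one to the NF-κB motif 44 bases before the start, and CCAAT also occurs, 106 bases before it. In Ptgs2 the single match among the motifs searched was GGGCGG, 170 bases before the start, left in lower case. Of all promoters 1.45% hold the NF-κB motif.
Ptgs2, chr1:150099781-150100060, + strand: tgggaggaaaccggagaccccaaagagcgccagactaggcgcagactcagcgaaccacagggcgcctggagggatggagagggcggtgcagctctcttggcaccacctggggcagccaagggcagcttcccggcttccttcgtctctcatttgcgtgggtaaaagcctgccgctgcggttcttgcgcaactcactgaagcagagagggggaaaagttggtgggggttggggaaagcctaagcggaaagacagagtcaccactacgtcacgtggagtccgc
Il6, chr5:30012864-30013143, + strand: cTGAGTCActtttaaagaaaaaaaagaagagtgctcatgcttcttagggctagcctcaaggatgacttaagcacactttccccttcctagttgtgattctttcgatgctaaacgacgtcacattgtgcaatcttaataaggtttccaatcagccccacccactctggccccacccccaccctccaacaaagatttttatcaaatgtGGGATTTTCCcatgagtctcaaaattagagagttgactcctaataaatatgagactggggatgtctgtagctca

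The Ptgs2 start (chr1:150099665-150100333) was called in no WT library, although 1 WT control and all 3 WT stimulated libraries held a weaker interval. It ranked 34995 and 29722 in KO control replicates 1 and 2 and 18642, 25436 and 21396 in the KO stimulated libraries (unadjusted exact permutation p = 0.0200, adjusted 0.161). The Il6 region (chr5:30012343-30015479) was absent from the kept lists of all 3 WT control libraries and ranked 17948, 19848 and 20115 in WT stimulated, 22456, 18198 and 21172 in KO control and 5860, 8116 and 8266 in KO stimulated libraries. The 3 KO stimulated libraries ranked it above all others, and the KO controls overlapped the WT stimulated libraries. With 9 of 12 calls it could not reach an unadjusted p of 0.05 for genotype (p = 0.1, exact permutation test). A similar pattern of 3 KO control and 0 WT control calls was seen at Cxcr5, a chemokine receptor gene, Phf11b and Slc11a1, where WT stimulated libraries also made calls; these 3 were named by rank among the 44.

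Promoters in members had fewer CpG dinucleotides than promoters in constant gene-end regions. CpG content was measured as the observed over the expected number of CpG in the 300 bases. Its median was 0.806 for the 8775 promoters in constant gene-end regions, 0.636 for the 1091 in members, and 0.229 for the 9800 whose start lay in no region. Among members it was 0.592 for the 90 promoters of lower and 0.356 for the 22 of higher regions, and 54.0% of all members' promoters, 48.9% of the lower and 9.09% of the higher ones reached 0.6. By number of calling libraries it lay between 0.539 and 0.648 for members called in 2 to 10 libraries, without an order, and was 0.714 for those called in 11. The few starts called more often after stimulation were CpG-poor, between the median of starts in no region and that of lower members.

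Of 11 motifs searched on both strands with overlaps between motifs allowed, AP-1 showed the widest gap between higher and lower members. The Sp/KLF letters GGGCGG were in 36.4% of the higher, 51.1% of the lower and 69.0% of the constant promoters, and the ETS letters CCGGAAGT in 0%, 5.56% and 10.6%. NF-κB letters were in 0 of 22 higher and 4 of 90 lower promoters (4.44%), and STAT letters (TTCNNNGAA) in 2 of 22 (9.09%) and 6 of 90 (6.67%), beside 7.69% of all promoters. RUNX letters (TGTGGTTT) were in 0 and 2, octamer letters (ATGCAAAT) in 0 and 1, T-box letters (AGGTGTGA) and the NRF1 letters in none of either, TCF/LEF letters in 1 and 5, and CCAAT in 9 (40.9%) and 26 (28.9%). Among members gained in WT, 15 of 35 promoters (42.9%) held TGANTCA and among those gained in KO 5 of 22 (22.7%), against 6 of 141 (4.26%) and 1 of 80 (1.25%) of those lost. The gained and higher sets overlap and are not separate evidence.

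**Figure D5:**
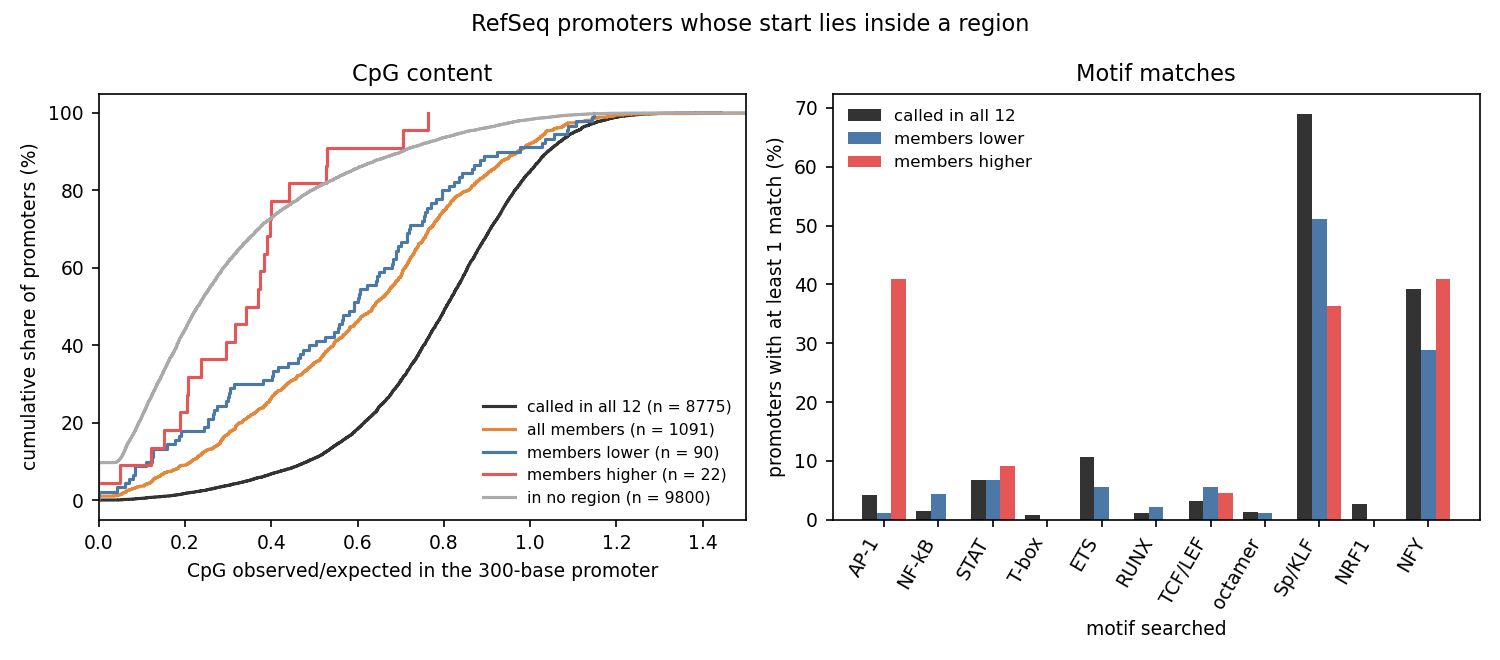
Left, cumulative share of RefSeq promoters (vertical axis, percent) by CpG observed over expected (horizontal axis) for promoters that start in a region called in all 12 libraries, in any variable gene-end region, in lower or higher members, or in no region; 9.09% of the 22 higher promoters reach 0.6, against 14.3% of promoters in no region and 81.6% in constant regions. Right, share of promoters with at least 1 match to each of 11 motifs; AP-1 is at 40.9% in higher, 1.11% in lower and 4.16% in constant promoters.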

How the data were processed

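ATAC-seq libraries of 100000 splenic NK cells each were analysed from the deposited peak lists, 1 list per library (12 lists). Per the submitters' processing notes, cutadapt 4.1, FastQC 0.11.9, Bowtie2 2.3.4.1, SAMtools 1.15.1, MACS2 2.1.1.20160309 and deepTools 3.4.2 were used with mm10; their settings are not given in the sources used here. The deposited lists give each interval's fold enrichment (a ratio) and its −log10 p and −log10 q, and no read counts, so the read depth is unknown and intervals of shared sequence may be misplaced. Intervals with the same limits were taken once, on chromosomes 1 to 19, X and Y.

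Python 3.11.15, NumPy 2.4.6, pandas 2.3.3 and matplotlib 3.10.9 were used. The exact permutation test and its Benjamini-Hochberg adjustment were tested on simulated data. Apart from planted changes, the simulation gave a region the same call rate in every library. It therefore does not cover a library that differs from the others, such as KO stimulated replicate 1. A region was testable when its margins allowed an unadjusted p of 0.05 or less. Ranks run from 1, the highest deposited −log10 q; a weaker interval is a deposited one below the kept list. Members are named by the gene with the nearest end. For each treatment direction the 12 leading members were named, ordered by difference in calling libraries, fewest deposited intervals on the low side and mean rank; likewise 6 per genotype direction by unadjusted p, 4 gained and 4 lost per pair of groups, and listed genes that passed. The members, gene lists and motifs were chosen with earlier results of these data known, and the printed promoters, Ptgs2 and Il6 after their values were seen. Motifs were searched on both strands of the 300-base RefSeq promoters: AP-1 TGANTCA, STAT TTCNNNGAA, T-box AGGTGTGA, ETS CCGGAAGT, RUNX TGTGGTTT, TCF/LEF CTTTGAA, octamer ATGCAAAT, Sp/KLF GGGCGG, NFY CCAAT, and the NF-κB and NRF1 motifs. Alternatives changed list length, ranking, overlap, distance, width, pairing and the libraries used.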

Additional observations from a re-analysis of the deposited data

How the results depend on the processing

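Ranking by deposited fold gave identical counts of members, so it was no separate check. Dropping the width limit added only 8 regions and left every count within 1.5 times of its value, which says little about the other settings. With all deposited intervals the treatment test called 90 members higher and 45 lower, and with lists of 17555 intervals 35 and 68. On the shorter lists these were 24.3% and 47.2% of testable members, beside 37.2% and 31.6% of all testable regions. Within 2 kb of a gene end 273 were higher (21.6% of testable members, beside 33.5% of all testable regions). Gained and lost members with all deposited intervals were 33 lost in WT, 56 gained and 121 lost in KO, 19 gained and 7 lost in KO control against WT control, and 2 gained in KO stimulated against WT stimulated. With lists of 17555 intervals they were 43 and 76 in WT, 32 and 63 in KO, 9 and 12 between controls, and 7 and 4 between stimulated groups. Within 2 kb, 385 were gained in WT, 213 in KO, and 86 lost between stimulated groups; where intervals had to cover 50% of a region, 23 were gained and 119 lost between stimulated groups. The cause of these shifts was not tested. For gained and lost members, shares over all variable regions were computed only with the main setting. The group means of members called, in the order WT control, WT stimulated, KO control and KO stimulated, were 2376, 2529, 2462 and 1839 with all deposited intervals and 206, 131, 209 and 128 with lists of 17555 intervals. The difference between stimulated and control WT libraries turned to 153 with all deposited intervals and was -75 with the shorter lists, where that in KO was -81.0.

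Leaving out each library in turn gave 140 to 169 higher and 284 to 342 lower members. Every member called before was called again, but each fit reuses the remaining libraries, so this is not separate support. These fits had 10260 to 11075 testable regions, against 8864 with all libraries. Gained and lost counts ask for 2 of 2 or 0 of 2 calls in the shortened group, so they can only rise. Gained and lost members ranged from 215 to 231 and 442 to 526 in WT, 128 to 167 and 261 to 334 in KO (334 without KO stimulated replicate 2), 55 to 77 and 48 to 77 between controls (77 gained without KO control replicate 1 and 74 without replicate 2; 77 lost without WT control replicate 1, 74 without WT control replicate 3, and 63, 75 and 59 without KO control replicates 1, 2 and 3), and 52 to 154 and 64 to 124 between stimulated groups (154 and 124 without KO stimulated replicate 3; 90 and 72 gained without replicates 1 and 2; 68 gained without WT stimulated replicate 3; 89 lost without KO stimulated replicate 2). The genotype test called 0 members in each of these fits. Deviations of same-numbered libraries had correlations of -0.03 to 0.07, and those of differently numbered ones -0.07 to 0.04. With 3 libraries per group these values cannot decide whether the numbers pair the libraries. With the replicate number as a block, 76 members were higher and 85 lower after stimulation (42.0% and 47.0% of those testable). This block has 64 rearrangements, and only regions called in 6 of 6 libraries of one side and 0 of 6 of the other can pass. Its calls are therefore the members of that kind given above, for genotype too, and it is no separate check. Over all testable regions these shares were 59.7% and 36.7%. By genotype the block called 3 of 7 testable members higher and 1 lower in KO, beside 34.8% and 28.3% of 92 testable regions. Of the named members, 7 lost their treatment call under that block, which they could not pass in any case. The call was lost by 13 with all deposited intervals, 16 with 50% coverage and 34 of 36 with lists of 17555 intervals. Peak lists hold no depth, and a missing call is not shown to be closed chromatin.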

Other observations

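At 3 genes both a higher and a lower member were found, named here after their values were seen. Cox7a2, a gene of cytochrome c oxidase, had a region 598 bp from its start (chr9:79772020-79772589) that ranked 27081, 26140 and 23343 in WT stimulated and 24453, 25784 and 16914 in KO stimulated libraries and had no interval in any control library. A region 492 bp from its far end (chr9:79755733-79756362) ranked 15244, 17404 and 16709 in WT control and 16808, 19005 and 15951 in KO control libraries and reached the kept list in no stimulated library. Ampd3, an AMP deaminase gene, and Amn, which encodes amnionless, had the opposite arrangement. At both the region near the start was lower and the one near the far end higher, each with an adjusted p of 0.0335 (exact permutation test).

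The 2766 members fell into 213 patterns of calls over the 4 groups. The commonest, 415 members (15.0%), was called in all libraries but 1 of KO stimulated. Of the higher members 51.1% lay at a gene that also had a constant gene-end region, against 28.9% of the lower and 29.8% of all members.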
